A study of Homo sapiens with 4 samples.

Results

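The Polycomb and DNA methylation genes are the enzymes and core subunits that write, keep and remove repressive marks on histone H3 and on cytosine. They were taken by symbol from a list of 10 genes: EZH2, EZH1, EED, SUZ12, DNMT1, UHRF1, DNMT3A, DNMT3B, TET1 and TET2. Of these, 9 had a probe set, 1 each, among 17687 named genes, and EED was not analysed here. All 9 lay among the 8843 genes that counted as measured, those whose highest signal exceeded 6.51 on the log2 scale. That level lies under the background of every array, defined further on, so a measured gene can still be below background. Above background on all 4 arrays were 6458 genes.

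The cells were 22Rv1, an established human line of castration-resistant prostate cancer, transfected with an siRNA against OCT1 (siOCT1) or with a control siRNA (siControl). OCT1 is the octamer-binding transcription factor. All cells spent 3 days in medium with 2.5% charcoal-stripped serum, which removes most steroid, and the hormone was added 48 h after transfection. The 4 groups were siOCT1 with 10 nM dihydrotestosterone (DHT) for 24 h, siOCT1 with ethanol vehicle, siControl with DHT and siControl with vehicle. Each group was 1 culture on 1 whole-transcript array, so no difference was checked in a repeat culture, and so few arrays set the precision. The siRNA target itself was not analysed here, so siOCT1 names the transfection as labelled.

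Polycomb repressive complex 2 (PRC2) methylates a lysine of histone H3 and keeps developmental genes silent, and EZH2, its proliferation-linked catalytic subunit, is known for high levels in advanced prostate cancer. DNA methylation is copied to the new strand after replication by DNMT1, which UHRF1 brings to half-methylated sites, while DNMT3A and DNMT3B set methylation on unmarked DNA. TET enzymes oxidise methylated cytosine, a step towards its removal.

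The promoters of these genes are shown because PRC2 and maintenance genes are known targets of E2F, the transcription factor family that drives S phase, and because OCT1 is known to bind the octamer. Windows of 300 bases, from 250 before to 50 after the annotated start, came from RefSeq on GRCh38.p14, and all 10 listed genes had one. They were searched on both strands for the octamer ATGCAAAT, for the E2F words TTTGGCGC, TTTGGCGG, TTTCCCGC, TTTCGCGC and TTTCCCGG, and for the CCAAT box. Capitals mark E2F and CCAAT matches, which did not overlap each other. The windows below, 5′ to 3′ on the strand of the gene, are those of the paralogs EZH2 and EZH1, of both maintenance genes and of TET2.
EZH2 (chr7:148884242-148884541, minus strand): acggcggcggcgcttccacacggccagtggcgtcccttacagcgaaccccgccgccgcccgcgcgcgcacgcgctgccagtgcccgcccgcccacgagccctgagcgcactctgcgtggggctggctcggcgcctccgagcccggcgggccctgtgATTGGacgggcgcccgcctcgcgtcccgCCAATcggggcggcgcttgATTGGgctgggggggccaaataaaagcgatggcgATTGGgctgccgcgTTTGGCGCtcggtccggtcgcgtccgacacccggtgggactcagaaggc
EZH1 (chr17:42744991-42745290, minus strand): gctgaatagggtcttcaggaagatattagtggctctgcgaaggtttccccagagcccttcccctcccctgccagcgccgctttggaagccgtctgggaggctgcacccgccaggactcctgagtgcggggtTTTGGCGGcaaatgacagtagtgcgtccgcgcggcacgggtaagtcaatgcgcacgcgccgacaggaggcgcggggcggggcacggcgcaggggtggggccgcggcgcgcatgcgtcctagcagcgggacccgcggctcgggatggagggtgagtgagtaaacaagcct
DNMT1 (chr19:10194904-10195203, minus strand): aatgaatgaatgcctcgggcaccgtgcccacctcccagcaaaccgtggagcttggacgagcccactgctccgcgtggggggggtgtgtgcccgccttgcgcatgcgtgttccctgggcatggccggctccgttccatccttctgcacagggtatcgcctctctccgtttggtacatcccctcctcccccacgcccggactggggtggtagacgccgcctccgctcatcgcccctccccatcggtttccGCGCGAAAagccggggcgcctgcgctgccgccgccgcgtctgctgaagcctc
UHRF1 (chr19:4909251-4909550, plus strand): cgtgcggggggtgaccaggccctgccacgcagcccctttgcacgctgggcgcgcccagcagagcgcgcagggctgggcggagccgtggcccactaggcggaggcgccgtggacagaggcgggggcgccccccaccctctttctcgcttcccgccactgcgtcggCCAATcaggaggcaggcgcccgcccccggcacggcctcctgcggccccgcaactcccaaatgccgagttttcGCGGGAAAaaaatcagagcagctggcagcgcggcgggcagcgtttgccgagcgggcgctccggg
TET2 (chr4:105145625-105145924, plus strand): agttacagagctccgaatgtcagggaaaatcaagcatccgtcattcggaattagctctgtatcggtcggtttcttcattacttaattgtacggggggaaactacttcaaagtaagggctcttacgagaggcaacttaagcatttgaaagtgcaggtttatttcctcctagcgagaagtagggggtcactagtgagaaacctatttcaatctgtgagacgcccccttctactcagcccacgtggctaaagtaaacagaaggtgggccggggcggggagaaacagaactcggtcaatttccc

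An E2F word stood in 5 of the 10 windows, those of EZH2, EZH1, SUZ12, DNMT1 and UHRF1. The same words stood in 4.82% of 27305 RefSeq windows of this length and in 8.76% of the 7445 windows of measured genes. EZH2 carried its match from position 252 of the window, next to the start at position 251, together with 4 CCAAT boxes. DNMT1 had a match from position 249 and UHRF1 from position 237. CCAAT boxes were in 5 of the 10 windows, against 35.7% of all windows and 38.4% of those of measured genes. The GC box GGGCGG, not capitalised and self-overlapping once in EZH2, was in 5 of the 10, against 44.6% of all windows and 70.7% of those of measured genes. The CHR words TTTGAA and TTCGAA were in 2 of the 10, SUZ12 and TET2, against 16.6% of all windows and 11.4% of those of measured genes. The octamer was in 0 of the 10 windows, which says only that these letters are not in these stretches. It was in 1.80% of all windows and 1.33% of those of measured genes. The EZH2 window held 46 CG pairs, the highest of the 10, and the DNMT3B window 3, against a median of 26 over measured genes. The DNMT3B window (chr20:32779602-32779901) begins inside the annotated gene, which starts at 32762385, so it belongs to a downstream start, and the UHRF1 window likewise lies inside its gene. The DNMT3A window (chr2:25342434-25342733, minus strand) also belongs to a start inside its gene, which is annotated up to 25342590.

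Signals are log2 values that the authors made with RMA. Their medians were 5.99 to 6.03, and the Pearson correlation between arrays, across probe sets, was 0.970 to 0.987. Background was the 95th percentile of 612 negative control probe sets on each array, at 6.91 and 7.39 for siOCT1 in DHT and vehicle and at 6.99 and 6.62 for siControl in DHT and vehicle. Levels of different genes are not compared, since probes differ in response. In whole-culture RNA, fewer cells of a type and less RNA per cell cannot be told apart. Among luminal prostate markers with a probe set, 5 of 6 lay above background on all 4 arrays, including KRT8 and HOXB13, and SLC45A3 did so on the 2 DHT arrays. All 2 basal, 3 immune and 2 endothelial markers lay below background on every array, as did 3 of 4 stromal markers, while of 3 neuroendocrine markers SYP was above it on all 4.

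With siOCT1, SUZ12, DNMT1 and DNMT3A had lower signal in both ligand states, TET2 had higher signal, and EZH2 stayed within 0.28 of its siControl value. By size, a difference of 1.5-fold or more in DHT and in vehicle alike, 3 members were lower and 2 higher, where 18.7% of measured genes were lower, 12.2% higher and 30.9% either. Of the negative control probe sets, which match no transcript, 18.6% also passed this size, so below background it carries little weight. An additive limma fit of siRNA and ligand over the 4 arrays called 3 members lower and 2 higher after Benjamini-Hochberg adjustment over all measured genes at a threshold of 0.05, against 15.3% and 9.10% of measured genes. Both rules gave SUZ12, DNMT1 and DNMT3A as lower, while the higher pair was EZH1 and TET1 by size and TET1 and TET2 in limma. TET1 was above background on 1 of 4 arrays and its vehicle pair lay wholly below it. It counted as measured through its siOCT1 arrays alone, where it was brighter, and so had to differ in that direction. Its place in both higher counts is therefore not a result. The median of the 9 mean differences was -0.89, beside -0.06 over all measured genes. That median is the value of DNMT3B, which was above background on 1 of 4 arrays and was not called. EZH2, EZH1, TET1 and TET2 had mean differences above 0, so the median does not describe a shift of the whole set. The limma error rests on 1 residual degree of freedom, the siRNA-by-ligand difference, and not on repeat cultures. Gene positions below are those of RefSeq on GRCh38.p14. "Rose" and "fell" are used below of genes that this fit called.

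**Figure D1:**
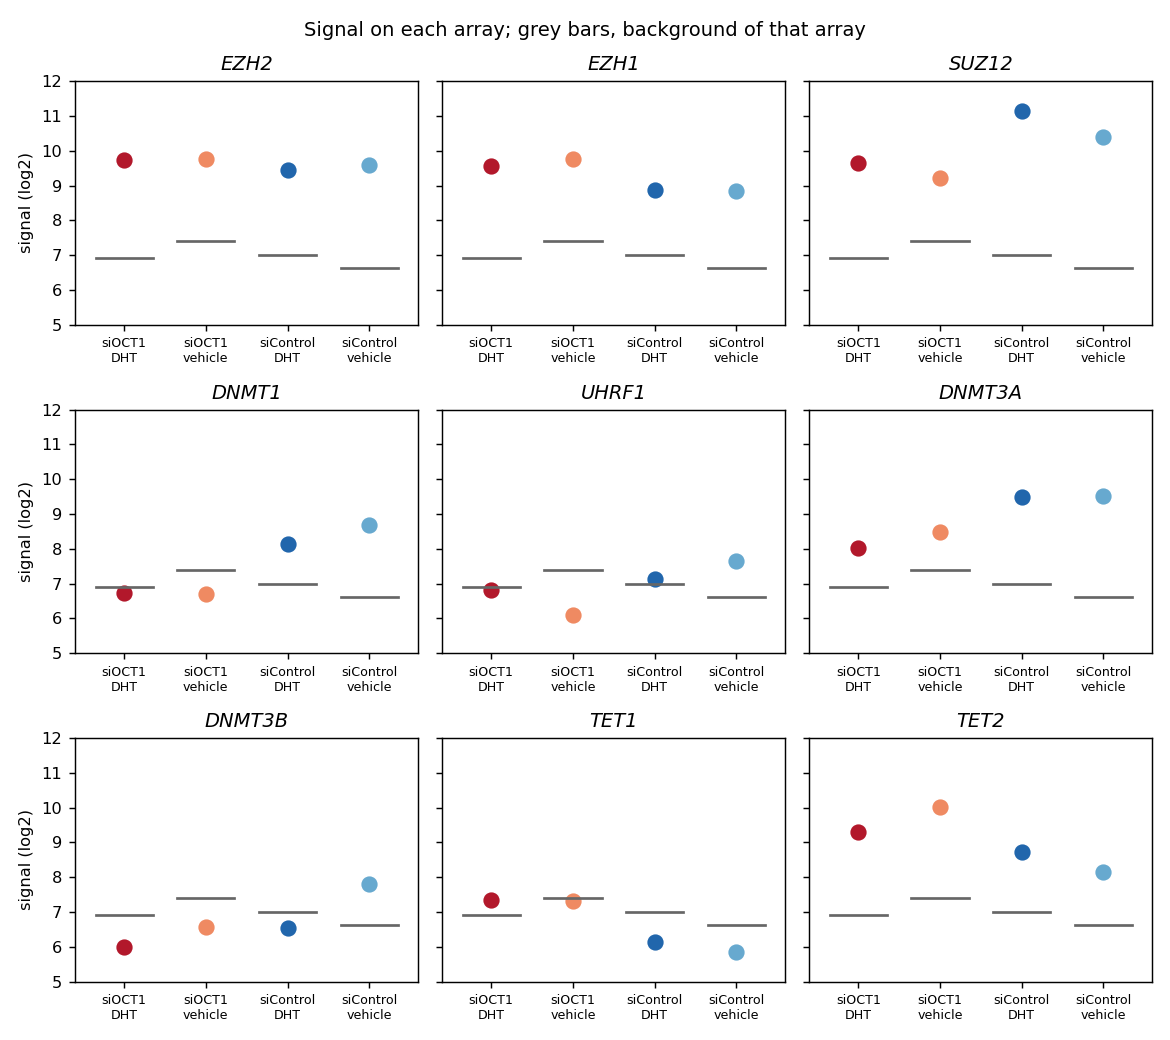
RMA signal (log2) of the 9 genes on each of the 4 arrays, 1 point per array, with a grey bar at the background of that array. SUZ12, DNMT1 and DNMT3A are lower on both siOCT1 arrays, TET2 is higher on both, EZH2 lies between 9.45 and 9.75 throughout, and DNMT3B and TET1 exceed background on 1 array each.

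EZH2 (chr7:148807383-148884291), the catalytic subunit of PRC2 in dividing cells, had a signal of 9.72 in DHT and 9.75 in vehicle in siOCT1 cells, against 9.45 in DHT and 9.58 in vehicle in siControl cells. Both siOCT1 arrays were slightly the brighter ones, by 0.27 in DHT and 0.17 in vehicle. The limma estimate was 0.22 with a standard error of 0.25, a 95% interval of -0.37 to 0.82 and an adjusted p of 0.541. The upper end of that interval is past 1.5-fold (0.58 on this scale), so the interval still holds a difference of that size.

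EZH1 (chr17:42700275-42745040), the paralog of EZH2 that also serves resting cells, had 9.56 in DHT and 9.76 in vehicle in siOCT1 cells, against 8.87 and 8.85 in siControl cells. The siOCT1 arrays were higher by 0.69 in DHT and 0.91 in vehicle. The limma estimate of 0.80 (standard error 0.26) had an adjusted p of 0.0623, which became 0.0445 with loess centring and 0.0359 with arrays centred on positive controls. Relative to EZH2 on the same arrays, the EZH1 difference was larger by 0.41 in DHT and 0.74 in vehicle, a value with no test.

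SUZ12 (chr17:31937007-32001038), the PRC2 subunit that holds the complex together, had 9.66 in DHT and 9.23 in vehicle in siOCT1 cells, against 11.14 in DHT and 10.38 in vehicle in siControl cells. It fell, with differences of -1.49 in DHT and -1.15 in vehicle. The adjusted p in limma was 0.0141 for an estimate of -1.32 (standard error 0.25). A transcribed pseudogene, SUZ12P1, lies on the same chromosome and its transcripts may share probes, so the signal is not certain to be that of SUZ12 alone. The SUZ12 difference minus that of EZH2 was -1.76 in DHT and -1.33 in vehicle.

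DNMT1 (chr19:10133346-10194953), the maintenance methyltransferase, had 6.73 in DHT and 6.70 in vehicle in siOCT1 cells, against 8.13 and 8.68 in siControl cells. Both siOCT1 values lay below the background of their arrays and both siControl values above it. DNMT1 fell in limma with an adjusted p of 0.0119, by at least 2.34-fold in DHT and at least 2.44-fold in vehicle. Of measured genes, 5.09% had a lower mean difference than its -1.69.

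UHRF1 (chr19:4903080-4962154), the reader of half-methylated sites, had 6.80 in DHT and 6.10 in vehicle in siOCT1 cells, against 7.14 in DHT and 7.66 in vehicle in siControl cells. Again both siOCT1 values were below background, and the siControl values stood above it, in DHT by little. The gene was at least 1.18-fold lower in DHT and at least 1.20-fold lower in vehicle, and its limma estimate of -0.95 had an adjusted p of 0.124. The difference was -0.34 in DHT and -1.56 in vehicle, so that the size rule was passed in vehicle alone.

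Among the de novo enzymes, DNMT3A (chr2:25227874-25342590) had 8.02 in DHT and 8.48 in vehicle in siOCT1 cells, against 9.48 and 9.51 in siControl cells. It fell, with differences of -1.45 in DHT and -1.03 in vehicle, with all 4 values above background. The adjusted p in limma was 0.0199 for an estimate of -1.24 (standard error 0.27).

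DNMT3B (chr20:32762385-32809356), the other de novo enzyme, had 6.01 in DHT and 6.56 in vehicle in siOCT1 cells, against 6.53 in DHT and 7.81 in vehicle in siControl cells. Only the siControl vehicle array exceeded background, and in vehicle DNMT3B was at least 1.34-fold lower in siOCT1 cells. No fold can be given in DHT, where both arrays were below background. The limma estimate of -0.89 had an adjusted p of 0.115.

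TET1 (chr10:68560337-68694487), a cytosine dioxygenase, had 7.36 in DHT and 7.32 in vehicle in siOCT1 cells, against 6.15 and 5.86 in siControl cells. Of these values only that of siOCT1 in DHT lay above background, where TET1 was at least 1.29-fold higher, and both vehicle arrays were below it. It rose in limma with an adjusted p of 0.0317, a call made mostly on values below background. TET1 counted as measured through its siOCT1 arrays alone, where it was brighter, and so had to differ.

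TET2 (chr4:105145875-105279803), a second enzyme of this family, had 9.31 in DHT and 10.01 in vehicle in siOCT1 cells, against 8.73 in DHT and 8.15 in vehicle in siControl cells. All 4 values exceeded background. TET2 rose by 1.86 in vehicle and by 0.58 in DHT, just short of 1.5-fold, with an adjusted p of 0.0469 in limma. That call is marginal, since the adjusted p ranged up to 0.0847 without the filter on dim genes. Against DNMT3A on the same arrays, the TET2 difference was larger by 2.03 in DHT and 2.88 in vehicle.

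**Figure D2:**
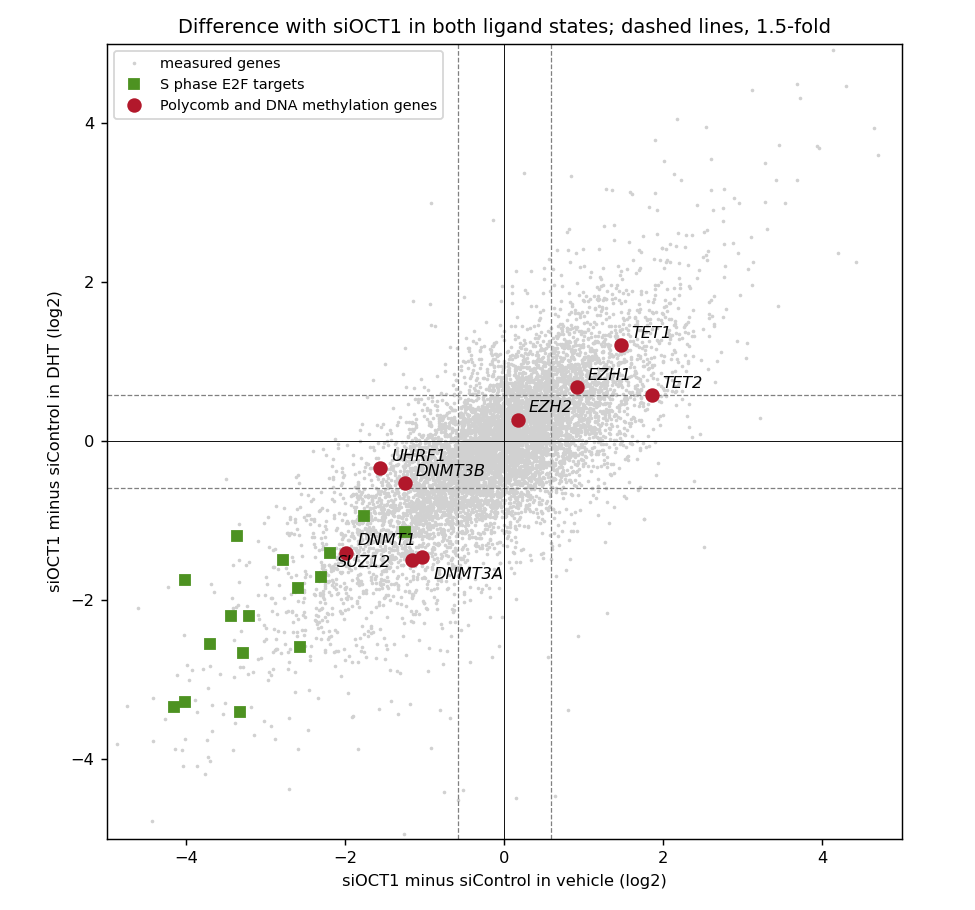
Difference between siOCT1 and siControl (log2) in vehicle on the horizontal axis and in DHT on the vertical axis, for all 8843 measured genes (grey), 16 S phase E2F targets (green squares) and the 9 Polycomb and DNA methylation genes (red). EZH2 sits near the origin, SUZ12, DNMT1 and DNMT3A lie below both lower 1.5-fold lines, and the S phase genes lie at the lower left, 4 of them measured through siControl alone.

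Genes of S phase, which a cell uses while it copies its DNA and its methylation, moved on the same arrays. Of 16 measured S phase E2F targets, 4 (MCM6, E2F1, E2F2 and CHAF1A) counted as measured through siControl alone, where they were brighter, and so had to differ. The 12 that passed under both siRNAs were lower by size and fell in limma, with a median difference of -2.20 in DHT and -3.30 in vehicle. RRM2, a ribonucleotide reductase subunit, differed by -3.34 in DHT and -4.16 in vehicle. TYMS, the thymidylate synthase, differed by -3.28 and -4.01, and CDC6, an origin licensing factor, by -3.41 in DHT, with a drop of at least 9.15-fold in vehicle. The smallest mean difference in the list was that of CCNE2, at -1.19. The 9 mitotic genes that passed under both siRNAs fell as well, with a median of -2.04, among them AURKA and CCNB1. AURKA differed by -2.65 and -2.72, and MYBL2, measured through siControl alone, was lower in DHT by at least 3.28-fold and in vehicle by at least 2.19-fold. SUZ12, DNMT1, UHRF1, DNMT3A and DNMT3B also had mean differences below 0, and EZH2, at 0.22, EZH1, TET1 and TET2 had them above 0. The part of the S phase and mitotic genes in the differences of the members was not tested.

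Counts in the lists that follow stand beside 18.7% of measured genes lower and 12.2% higher by size, and 15.3% lower and 9.10% higher in limma. Shares of measured genes at an unadjusted p below 0.05 were not counted, so list counts at that threshold have no such comparison. Of 8 measured accessory subunits of PRC2, 2 were lower and 1 higher by size, and limma called 1 lower and 1 higher, with a median of -0.23, which is near those shares. RBBP4, the histone-binding subunit, had 10.88 in DHT and 10.47 in vehicle in siOCT1 cells, against 12.86 and 12.74 in siControl cells. It fell, with differences of -1.98 and -2.27 and an adjusted p of 0.00287 in limma, although several RBBP4 pseudogenes could share probes. JARID2, which helps to bring PRC2 to chromatin, rose, at least 2.06-fold in DHT and by 1.19 in vehicle. LCOR stood at -2.31 in DHT and -0.46 in vehicle, with an adjusted p of 0.0590 in limma.

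Polycomb repressive complex 1 (PRC1) ubiquitinates histone H2A and binds the mark that PRC2 makes. Of its 15 measured subunits, 3 were higher by size and 0 lower, and limma called 1 higher and 0 lower, no more than the 9.10% higher over measured genes, with a median of 0.09. PCGF5, a subunit of variant PRC1, rose by 1.44 in DHT and by 2.16 in vehicle. CBX6, a chromodomain reader, was higher by 0.93 and 0.78, and KDM2B, which binds unmethylated CG islands, was at least 1.95-fold higher in DHT, its siControl value being below background, and 0.55 higher in vehicle, neither of them called. Of the enzymes that remove these histone marks, KDM6A, a demethylase of the residue that PRC2 methylates, rose by 1.06 in DHT and by 1.60 in vehicle. HCFC1, a partner of the H2A deubiquitinase complex, fell, with differences of -0.84 and -0.82 and an adjusted p of 0.0498, a call that was lost under most alternatives. KDM6B was higher by 0.77 and 0.34 without a call, and the 7 measured genes of that list had a median of 0.24.

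Of 12 measured cofactors and readers of DNA methylation, limma called 2 lower, near the 15.3% over measured genes, and 0 higher, with 4 at an unadjusted p below 0.05 and a median of -0.11. HELLS, the remodeller that opens chromatin to DNA methyltransferases, had 8.14 in DHT and 7.93 in vehicle in siOCT1 cells, against 10.24 and 10.22 in siControl cells. HELLS fell, with differences of -2.10 and -2.29, as did MBD2, a reader of methylated CG, with -0.89 and -0.78, though the MBD2 call was lost without the dim-gene filter, with loess centring and without trend. UHRF2, the paralog of UHRF1, was higher by 0.56 in DHT and 1.07 in vehicle (adjusted p of 0.0622 in limma, 0.0428 with loess centring), opposite in sign to UHRF1. ZBTB4 lay below background on 3 arrays.

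In the DNA demethylation list, with 9 measured genes and a median of -0.06, limma called 1 gene lower and 1 higher. TDG, the glycosylase that removes oxidised methylcytosine, fell with an adjusted p of 0.00856, by at least 3.20-fold in DHT and at least 1.57-fold in vehicle. IDH1, which makes the cosubstrate of TET enzymes, rose by 0.52 and 0.84, a call lost without the dim-gene filter, with raised values and without trend (adjusted p up to 0.118). TET3, the remaining TET enzyme, was higher by 1.37 in DHT and 0.58 in vehicle, with an adjusted p of 0.0545 that became significant with loess centring and with arrays centred on positive controls.

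Of 9 measured genes that supply the methyl donor S-adenosylmethionine, limma called 3 lower and 0 higher, where 15.3% and 9.10% of measured genes were called, with a median of -0.50 and the other 6 not called. MAT2B, a subunit of the enzyme that makes it, fell, with differences of -1.72 in DHT and -1.63 in vehicle. SHMT2, the mitochondrial serine hydroxymethyltransferase, had differences of -0.93 and -1.23, and MTHFD1, a folate enzyme, of -0.81 and -1.12, the last call being lost without trend.

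**Figure D3:**
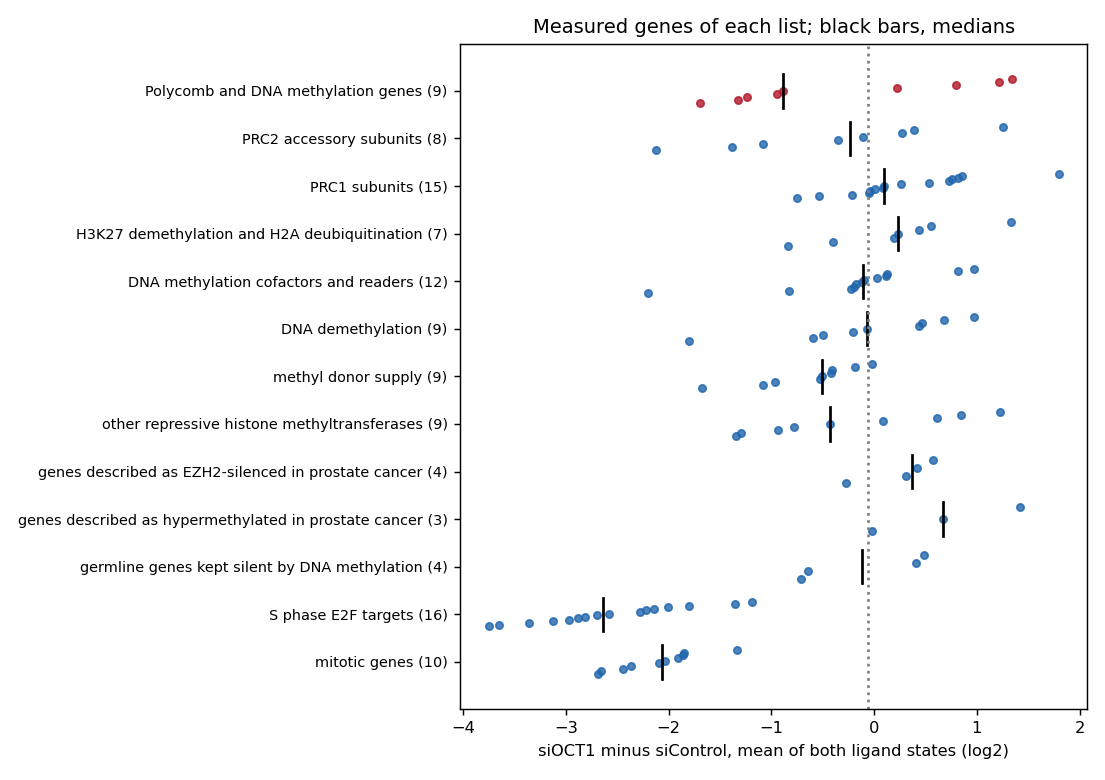
Difference between siOCT1 and siControl averaged over both ligand states (log2), 1 point per measured gene, for the 9 Polycomb and DNA methylation genes (red) and 12 gene lists (blue), with the number of measured genes in brackets. Black bars are list medians and the dotted line is the median of all measured genes, -0.06, and every measured gene of the S phase and mitotic lists lies below -1, 4 and 1 of these being measured through siControl alone.

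Readouts of the marks themselves were not measured, only genes reported as silenced by them. Of all 17687 named genes 8843 counted as measured, and the others lay below background on every array. Low signal alone is therefore not read as silencing. Of 8 genes described as EZH2-silenced in prostate cancer that had a probe set, 4 lay below background on all 4 arrays, and limma called 0 of the other 4 with siOCT1, where 24.4% of measured genes were called, while 0 of them had an unadjusted p below 0.05. CDH1, the epithelial cadherin, was higher by 0.38 in DHT and 0.24 in vehicle, PEBP1 by 0.63 and 0.21 and PAX9 by 0.43 and 0.72. BMPR1B, the remaining measured gene, went the other way, at -0.35 in DHT and -0.19 in vehicle, where its siOCT1 value was below background. Of 11 genes described as hypermethylated in prostate cancer, 8 lay below background on every array. GSTP1, the glutathione transferase whose promoter methylation is a known feature of prostate tumours, had 3.81 in DHT and 3.77 in vehicle in siOCT1 cells, against 3.78 and 3.43 in siControl cells, all below background. RARB, a retinoic acid receptor, was the 1 member of that list called, higher with siOCT1 by 1.26 in DHT with both vehicle arrays below background. APC was higher by 0.33 and 1.01 and CDKN2A stood at 0.21 and -0.25, neither called.

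Between DHT and vehicle, no member passed 1.5-fold in the same direction under both siRNAs, where 9.23% of measured genes did (4.86% higher, 4.37% lower), and limma called 0 of 9 after Benjamini-Hochberg adjustment, where 0.984% of measured genes were called (0.679% higher, 0.305% lower). At an unadjusted p below 0.05 it called 1 member, DNMT3B, and the share of measured genes at that threshold was not counted. The median of the 9 mean differences was -0.08, beside 0.01 over all measured genes.

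EZH2 differed between DHT and vehicle by -0.02 in siOCT1 cells and by -0.13 in siControl cells, with a 95% interval of -0.67 to 0.52 for the limma estimate of -0.08. EZH1 differed by -0.21 and 0.02, and DNMT3A by -0.45 and -0.03. SUZ12 was higher with DHT by 0.43 in siOCT1 cells and by 0.76 in siControl cells, the highest mean of the 9, with an adjusted p of 0.373 in limma. DNMT3B was the lowest. Its signal in siControl cells was 6.53 with DHT, below background, and 7.81 with vehicle, at least 1.77-fold lower with DHT, and both siOCT1 values were below background. The limma estimate for DNMT3B was -0.91 with an adjusted p of 0.341.

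The DNMT1 difference with DHT was -0.55 in siControl cells, where UHRF1 stood at -0.52, both with values above background on those arrays. In siOCT1 cells both genes were below background with either ligand, so no response can be read there. TET1 was below background on both siControl arrays. TET2 had opposite signs, at -0.70 in siOCT1 cells and 0.58 in siControl cells, with all 4 values above background.

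**Figure D4:**
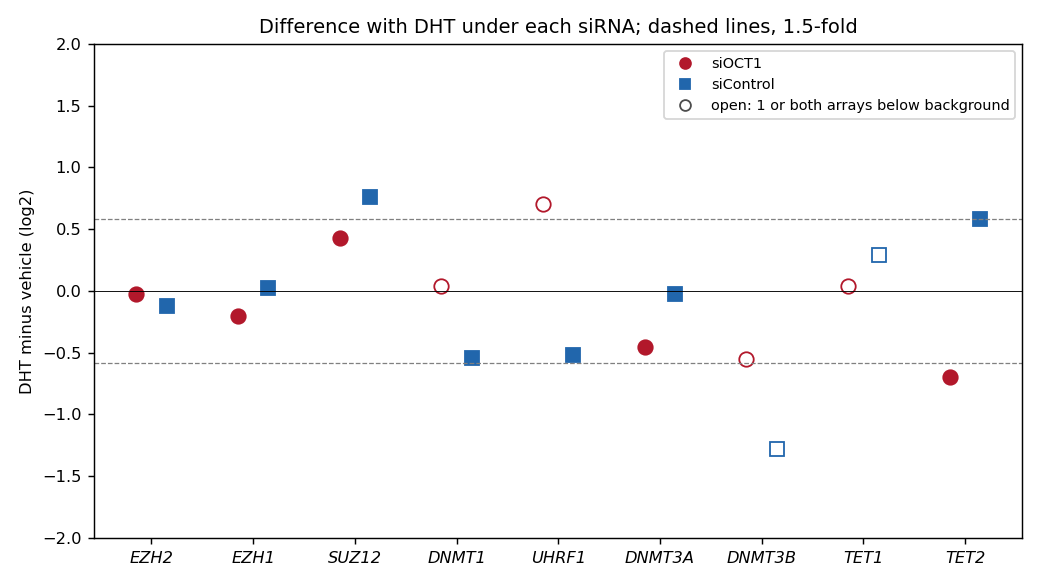
Difference between DHT and vehicle (log2) for the 9 genes in siOCT1 cells (red circles, left) and siControl cells (blue squares, right); open symbols have 1 or both arrays below background and dashed lines mark 1.5-fold. No gene lies past the same dashed line under both siRNAs, and TET2 lies at -0.70 with siOCT1 and 0.58 with siControl.

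The DHT difference in siOCT1 cells minus that in siControl cells was -1.28 for TET2, 1.22 for UHRF1 and 0.73 for DNMT3B, past 1.5-fold, and within it for the other members. DNMT1, at 0.5844, was only just within it (0.5850 on this scale). Of measured genes 35.5% were past that size in either direction, and 65.2% of negative control probe sets were. These are single values with no test, and those of UHRF1, DNMT3B and DNMT1 rest on arrays below background.

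In the lists around the members, limma called BMPR1B and RARB for DHT and no other gene, where it called 0.984% of all measured genes. BMPR1B, a BMP receptor listed as EZH2-silenced, rose with DHT at least 2.24-fold in siOCT1 cells and by 2.28 in siControl cells, with the siOCT1 vehicle value below background and the siControl one barely above it, and CDH1 differed by -0.72 and -0.85 without a call (adjusted p of 0.209 in limma). RARB had 9.99 with DHT and 7.24 with vehicle in siOCT1 cells, and 8.72 with DHT and 5.66 with vehicle in siControl cells, and it rose with an adjusted p of 0.00945, a call lost when values were raised to the highest background (0.182). LCOR stood at -0.03 in siOCT1 cells and at 1.82 in siControl cells, and LCORL at 0.19 and 1.48. BCOR, a variant PRC1 subunit, differed by -0.40 and -0.95, and JARID2 by -0.65 in siOCT1 cells, and it was at least 1.42-fold lower in siControl cells, where its DHT value was below background, neither called. Of PRC1, DNA methylation cofactor, DNA demethylation and methyl donor genes limma called 0 for DHT, and 1, 0, 0 and 1 of them had an unadjusted p below 0.05.

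Genes with the profile most like a member were ranked by the root mean square distance of centred values over the 4 arrays. The nearest to EZH2 were GPATCH1, NEK4, PPFIA1, TLK2 and MCL1, at distances of 0.026 to 0.030, and 1363 measured genes lay within 0.2 of it, so its flat profile was common. DNMT1 had 130 genes within 0.2, the nearest being ATP5MC1, AFG3L2, PLTP, PPTC7 and DHCR7, at 0.060 to 0.069. UHRF1 had 199, led by PDCD2, PSMG3, TMEM218, GEMIN6 and NUP155, at 0.040 to 0.060. Both siOCT1 values of DNMT1 and of UHRF1 lay below background, so these distances rest partly on such values.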

How the data were processed

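Each of the 4 groups was 1 whole-transcript array of total RNA, as the labels' protocols state. The authors deposited log2 signals, and the submitters' processing notes name RMA and Affymetrix Expression Console, and their version and the genome build are not given in the sources used here. Since RMA forces arrays to 1 distribution, a global shift cannot be seen. No source gives the log base, which was inferred from how high the values reach, and 327 to 379 of them per array exceeded 16, so the scale may be stretched.

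Of 24351 probe sets, 17709 had 1 symbol in the platform table, 0 had several and 3739 transcript probe sets had none. For the 20 genes with more than 1 probe set the brightest was used. Measured genes were those whose highest signal over the arrays was above the all-gene median of such highest signals. A fold written "at least" sets the brighter array of a pair against the background of the dimmer one, which lay below it, and pairs wholly below background have none. Differences were counted at 1.5-fold in both pairs of arrays. limma 3.58.1 (R 4.3.3; lmFit, eBayes with intensity trend, 1 residual and 5.85 prior degrees of freedom) fitted siRNA plus ligand over all 8843 measured genes, with Benjamini-Hochberg adjustment. Fits were tested on simulated data. Named genes were the members, up to 3 genes per list with the largest mean difference for each factor, 5 nearest profiles of EZH2, DNMT1 and UHRF1, and markers. CCNE2, MCM6, E2F1, GSTP1, DAZL and MAEL were named after their values were seen.

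The members and lists were chosen with earlier results of these data known. Alternatives were a 2-fold rule, no filter or a stricter filter on dim genes, loess centring, centring on 2197 positive controls, values raised to the highest background (genes at that level on all arrays left out), 32 added before the logarithm, the mean of probe sets, and limma without trend or robust. Python 3.11.15 with numpy 2.4.6, pandas 2.3.3, statsmodels 0.14.6 and matplotlib 3.10.9 did the rest.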

Additional observations from a re-analysis of the deposited data

How the results depend on the processing

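The count of 3 members lower with siOCT1 kept to 2 or 3 by size and in limma under every alternative, the count of 2 arising where DNMT1, below background in siOCT1 cells, was filtered out. The 2 members higher by size became 1 with a 2-fold rule, 1 with only genes above background on all 4 arrays and 1 when values were lifted to the highest background. The 2 higher in limma became 1 without a filter, 1 with the stricter filter, 1 with 32 added, 1 without trend, 1 with robust moderation and 0 with raised values, and they became 3, with EZH1, with loess centring and with centring on positive controls. By size there were also 3 with loess centring. For DHT, 1 member, DNMT3B, was lower by size with arrays centred on positive controls, against 0 otherwise. Positive changes of the DHT difference numbered 1 with that centring and 0 with raised values, against 2, and became 3, with DNMT1, with loess centring. Negative ones numbered 2 with centring on positive controls, against 1. Over single members, 144 values kept direction and side of the threshold, 5 lost the call, 2 gained it and 1 uncalled value changed sign. All 5 losses were those of TET2 for siRNA. Left out of this tally are members that a setting dropped. These were DNMT1, UHRF1, DNMT3B and TET1 with the stricter filter, and TET1 with raised values. For the lists and their named genes 25 calls were lost, 11 gained 92 counts moved by over 1.5 times and 8 uncalled values changed sign, and the cause was not tested. Centring on positive controls moved the median siRNA difference of measured genes in vehicle to 0.15, against -0.06. Signal near background limits DNMT1, UHRF1, DNMT3B and TET1. No paired analysis was possible because each group held 1 array, so replicates could not be matched across groups, and the fit already holds ligand as a term. Counting only list genes measured under both siRNAs was added after seeing the data.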

Other observations

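Of 9 measured genes for other repressive histone methyltransferases, 3 fell and 2 rose in limma with siOCT1, where 15.3% of measured genes fell and 9.10% rose, with a median of -0.43. EHMT2, which makes a silencing mark on histone H3, had 7.05 in DHT and 8.19 in vehicle in siOCT1 cells, against 8.55 in DHT and 9.30 in vehicle in siControl cells, and fell. KMT5A, a histone H4 methyltransferase, fell with differences of -1.41 and -1.28. SETDB2 rose, at least 1.95-fold in DHT and by 1.21 in vehicle, a call lost with raised values. With DHT, EHMT2 differed by -1.14 in siOCT1 cells and -0.75 in siControl cells, with an adjusted p of 0.216 in limma.

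Germline genes that DNA methylation keeps silent in most somatic cells lay below background on all 4 arrays in 6 of 10 cases, DAZL and MAEL among them. Over all 17687 named genes 8843 counted as measured, and the others lay below background on every array too. MAGEA4 and MAGEA1, cancer-testis antigens, were above it on all 4. With siOCT1, MAGEA4 differed by -0.63 in DHT and -0.67 in vehicle, and MAGEA1 by -0.16 and -1.27. BRDT and SYCP3 exceeded background with siOCT1 in DHT alone. Both counted as measured through siOCT1 alone, where they were brighter, and so had to differ in that direction, which is not a result. limma called 0 of the 4 measured genes of this list for either factor. Over all measured genes it called 24.4% for siRNA and 0.984% for DHT. At an unadjusted p below 0.05 the list had 1 gene for siRNA and 0 for DHT.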
